A study of Mus musculus with 4 samples.

Results

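SWI/SNF complexes are ATP-driven machines that slide or evict nucleosomes, and their subunits are encoded by gene families of which a cell uses one paralogue or another. The genes described here are 30 subunit genes of the 3 mammalian forms, BAF, PBAF and ncBAF. They were taken by gene symbol and account for 77 of the 45101 probe sets on the array, between 1 and 7 per gene; 28 of the 30 passed the filter on dim signals, among 13729 genes tested. The samples are mouse embryonic stem (ES) cell lines, 1 array each: 2 lines named ko1 and ko2 in which BAF250 is knocked out on both alleles (homozygous), 1 heterozygous line and 1 wild type line. All were kept feeder-free on gelatin, in a serum medium with leukocyte inhibitory factor as the labels spell it, and no other treatment is labelled. The sources used here do not give how the alleles were altered, the strain or the passage. Nothing in the labels says whether ko1 and ko2 are separate clones or cultures, so the p-values cover no more than the spread of these arrays, which may be technical. Only the homozygous group has a second array, so wild type and heterozygous were taken to vary as much as the homozygous lines do.

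Each form is built on one ATPase, Brg1 (gene Smarca4) or Brm (Smarca2), bound by core scaffold proteins and actin-like subunits. BAF is marked by an ARID1 protein, BAF250a (Arid1a) or BAF250b (Arid1b), which binds DNA with little sequence preference. PBAF has Arid2, Pbrm1, Brd7 and Phf10 in their place, and ncBAF has Brd9 with Bicra or Bicral and lacks the Smarcb1 and Smarce1 proteins. ES cells are known for a form that holds Brg1, Smarcc1, Arid1a, Actl6a and Dpf2, whereas neurons exchange several of these for Actl6b, Dpf1 or Dpf3, and Ss18l1.

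The arrays differed in level. The median signal over all probe sets was 4.01 in wild type and between 2.61 and 2.74 in the others, and the median tested gene differed by -0.75 on the log2 scale for homozygous minus wild type. Log2 differences below are therefore relative to the median tested gene of the same comparison, while limma adjusted p-values come from signals as deposited. An adjusted p against wild type thus tests a difference that still includes the shift of the median gene. Background, the brightest of 27 control probe sets for bacterial transcripts that are not spiked in, was 7.57 in wild type, 6.92 in heterozygous, 5.55 in ko1 and 3.82 in ko2. For actin, the ratio of the 3' to the 5' control probe set was 1.30 in wild type, 2.61 in ko2, 2.86 in heterozygous and 5.01 in ko1. For GAPDH the same ratio was 1.10 in wild type, 1.21 in ko2, 1.27 in heterozygous and 2.57 in ko1. A higher ratio is a sign of poorer RNA. Both ratios were highest in ko1 and lowest in wild type, the array where most subunits were brightest. Their part in the differences below was not tested. Of the 30 subunit genes, 11 were above background on all 4 arrays on their brightest probe set, 16 on some, and 3 (Arid1b, Ss18l1 and Bcl7a) on none.

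**Figure D1:**
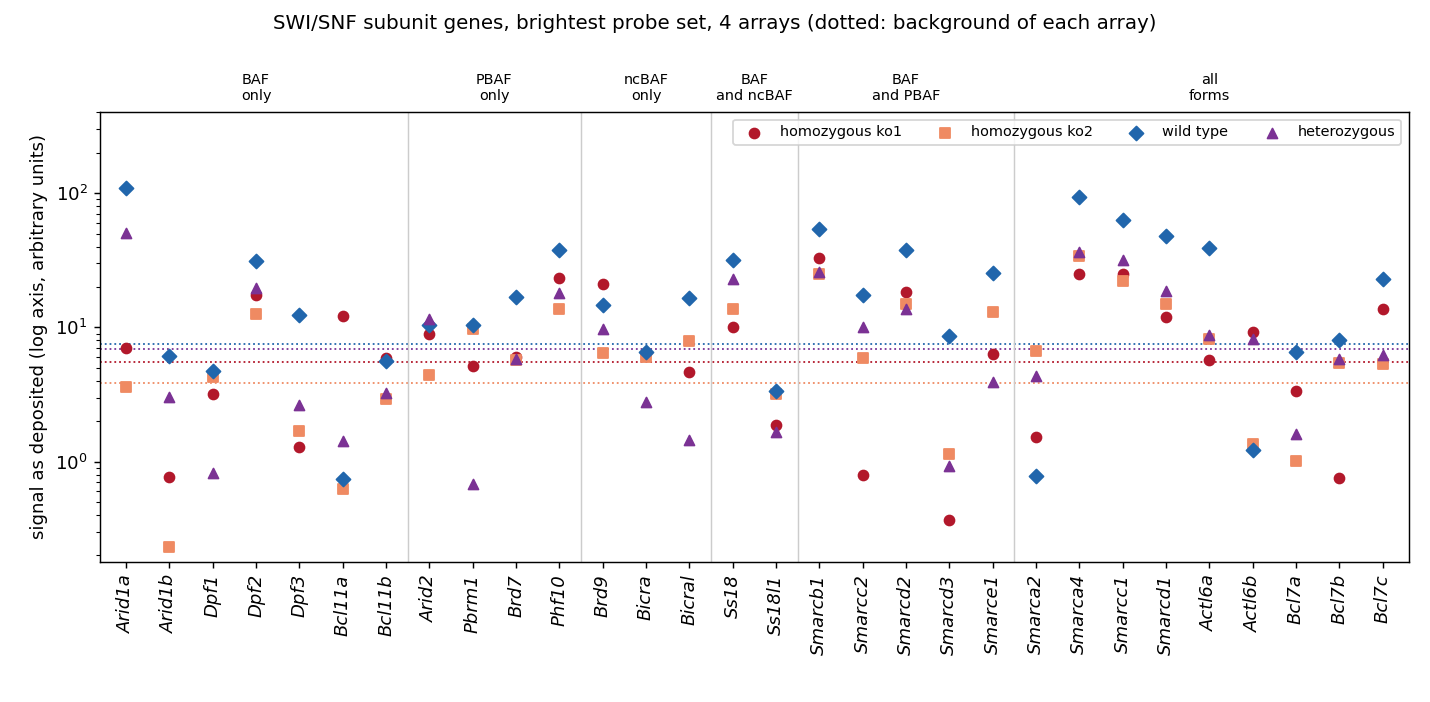
Signal as deposited (log axis) of the 30 subunit genes on their brightest probe set, grouped by the complex forms that hold them, with 1 point per array and the background of each array as a dotted line. Wild type is the brightest array for 22 of the 28 tested genes, and Arid1a is the gene whose homozygous lines lie furthest below both other arrays.

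Arid1a, the BAF250a gene on chromosome 4, was the 1 subunit that fell in the homozygous lines. Its brighter probe set read 109 in wild type, 50.4 in heterozygous, 7.03 in ko1 and 3.57 in ko2. Both homozygous lines lay far below the other arrays, with ko2 under its background, and they did not overlap with them. The log2 difference from wild type was -3.52 ± 0.61 (SE) (limma adjusted p = 7.39e-06), a fall of at least 11.1-fold with ko2 set at its background. After median centring of the arrays the limma adjusted p was 0.0113. With ko2 left out the difference was -3.25 and with ko1 left out -3.94, values that have no test. The dimmer probe set read 42.9 in wild type, 24.1 in heterozygous, 17.3 in ko1 and 1.06 in ko2. There ko1 was at 40.3% of wild type as deposited, and ko2 was below its background, so the share of ko2 was not measured. The probe set did not pass in a fit over all 27022 probe sets above the filter (-2.23 ± 0.89, limma adjusted p = 0.183). When the log2 values of both probe sets were averaged, the call of Arid1a ended (-3.01, adjusted p = 0.246), as it did when the variance was estimated without an intensity trend (adjusted p = 0.545). The labels name BAF250 without a letter, so which gene was targeted, and which part of it, is not stated. A probe set outside the altered part might not show the alteration.

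The dosage of Arid1a in the heterozygous line depended on how the arrays were scaled. On the brighter probe set heterozygous stood at 46.3% of wild type as deposited. It stood at 73.3% once each array was divided by its median tested gene, at 67.0% over the spiked controls and at 78.8% after quantile normalization. The dimmer probe set gave 56.2%, 89.0%, 81.3% and 97.1% in the same order. The heterozygous level was thus lowest relative to wild type in the signals as deposited on both probe sets. The heterozygous minus wild type difference was -0.42 ± 0.70 (SE) and did not pass (limma adjusted p = 0.672). On the brighter probe set ko1 stayed between 6.45% and 9.77% of wild type under all 4 scalings. On the dimmer one ko1 stood higher, at 40.3% as deposited, 59.6% over the median tested gene, 44.0% over spiked controls and 59.9% after quantile normalization. Against heterozygous the homozygous lines were lower by 3.13 ± 0.61 (SE) on the log2 scale (limma adjusted p = 0.00145), a call that also ended with probe sets averaged (adjusted p = 0.5) and without the trend (adjusted p = 0.634).

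**Figure D2:**
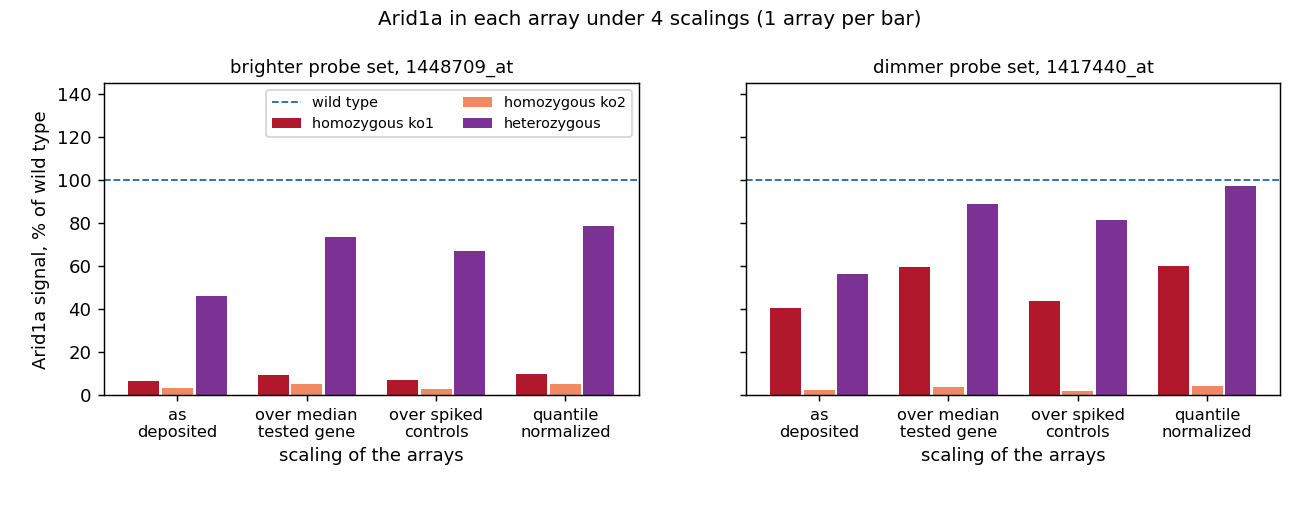
Arid1a signal of each array as a percent of wild type (bars, 1 array each; the dashed line is wild type) on its 2 probe sets under 4 scalings of the arrays. The heterozygous bar on the brighter probe set goes from 46.3% as deposited to 78.8% after quantile normalization; ko2 is below its background on both probe sets.

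Arid1b, the paralogue that can take the place of Arid1a in BAF, has 1 probe set, which read 6.14 in wild type, 3.03 in heterozygous, 0.774 in ko1 and 0.233 in ko2. All 4 values were below background, so they have no order, and Arid1b was not tested. The homozygous lines thus showed no Arid1b signal that this probe set could measure, and neither did the other arrays.

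The RefSeq table of gene starts (GRCm38.p6) held 26 promoters of 24 of these genes. The bases just before the start are shown for Arid1a, which has 2 listed starts, and for the 3 other tested subunits with the smallest p-values, Actl6a, Smarca4 and Smarcd1. Each run is the 150 bases before the start, and capitals mark the GC box letters GGGCGG or, on the other strand, CCGCCC, where neighbouring matches can overlap.
Arid1a, chr4:133756770-133756919, minus strand: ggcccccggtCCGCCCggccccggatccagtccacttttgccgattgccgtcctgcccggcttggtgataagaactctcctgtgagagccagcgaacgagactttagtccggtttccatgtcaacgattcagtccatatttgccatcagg
Arid1a, chr4:133753986-133754135, minus strand: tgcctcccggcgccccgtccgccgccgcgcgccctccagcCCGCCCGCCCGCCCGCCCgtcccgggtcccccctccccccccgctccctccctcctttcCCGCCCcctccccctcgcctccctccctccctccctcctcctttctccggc
Actl6a, chr3:32708396-32708545, plus strand: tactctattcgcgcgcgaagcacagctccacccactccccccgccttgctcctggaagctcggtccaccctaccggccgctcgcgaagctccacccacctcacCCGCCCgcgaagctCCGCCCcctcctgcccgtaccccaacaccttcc
Smarca4, chr9:21616019-21616168, plus strand: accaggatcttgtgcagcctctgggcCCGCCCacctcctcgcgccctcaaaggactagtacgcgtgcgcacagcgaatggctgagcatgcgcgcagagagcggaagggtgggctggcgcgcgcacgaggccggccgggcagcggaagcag
Smarcd1, chr15:99702137-99702286, plus strand: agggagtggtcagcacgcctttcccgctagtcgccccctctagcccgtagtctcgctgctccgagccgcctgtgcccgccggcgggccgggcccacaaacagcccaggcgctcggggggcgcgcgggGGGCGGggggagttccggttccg
Each run held between 1 and 5 GC box matches. In the 250 bases before the start, 21 of the 26 subunit promoters (80.8%) held this box on either strand, against 32.7% of all 32851 promoters. A CCAAT box (CCAAT, either strand) was in 5 of 26 against 33.8%, a TATA box (TATAAA, either strand) in 1 of 26 against 12.4%, and the octamer ATGCAAAT read by OCT factors in 0 of 26 against 1.60%. The median number of CG pairs was 26.5 in the subunit promoters and 6 in all promoters. These letters describe the promoters and were not related to the array values.

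Across the family, 1 of 28 tested subunits fell, 0 rose and 27 did not pass in homozygous against wild type (limma, adjusted p under 0.05). Of all tested genes 1.01% were called, 0.612% lower and 0.401% higher; the lower share of calls was 60.4% as deposited but 12% after quantile normalization, 10% after median centring, 29.0% over spiked controls and 2.17% after cyclic loess. At an unadjusted p under 0.05, 7 subunits were lower and 0 higher, against 1383 and 247 of all tested genes. The median difference of the 28 was -0.60, by construction 0 for the median of all tested genes, and 19 lay below that median gene. On their brightest probe sets 11 subunits had both homozygous lines below heterozygous and wild type, and 0 had them above. The shares among all tested genes were 26.9% and 11%. Of the 11 subunits above background on all arrays, 7 had both homozygous lines below. The share among all genes above background on all arrays was not computed, and the 26.9% includes dim genes. Wild type was the brightest array in 22 of 28, against 55.1% of all tested genes. Of the 28 subunits, 13 were in the 3 brightest of 10 equal bins of tested genes by signal, where wild type was brightest in 65.5% to 70.5% of genes. Set against the median gene of the same bin, the subunits' median was -0.59. The median moved with the processing, to -0.38 after quantile normalization and to -0.21 with probe sets averaged, so its size rests on those choices.

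**Figure D3:**
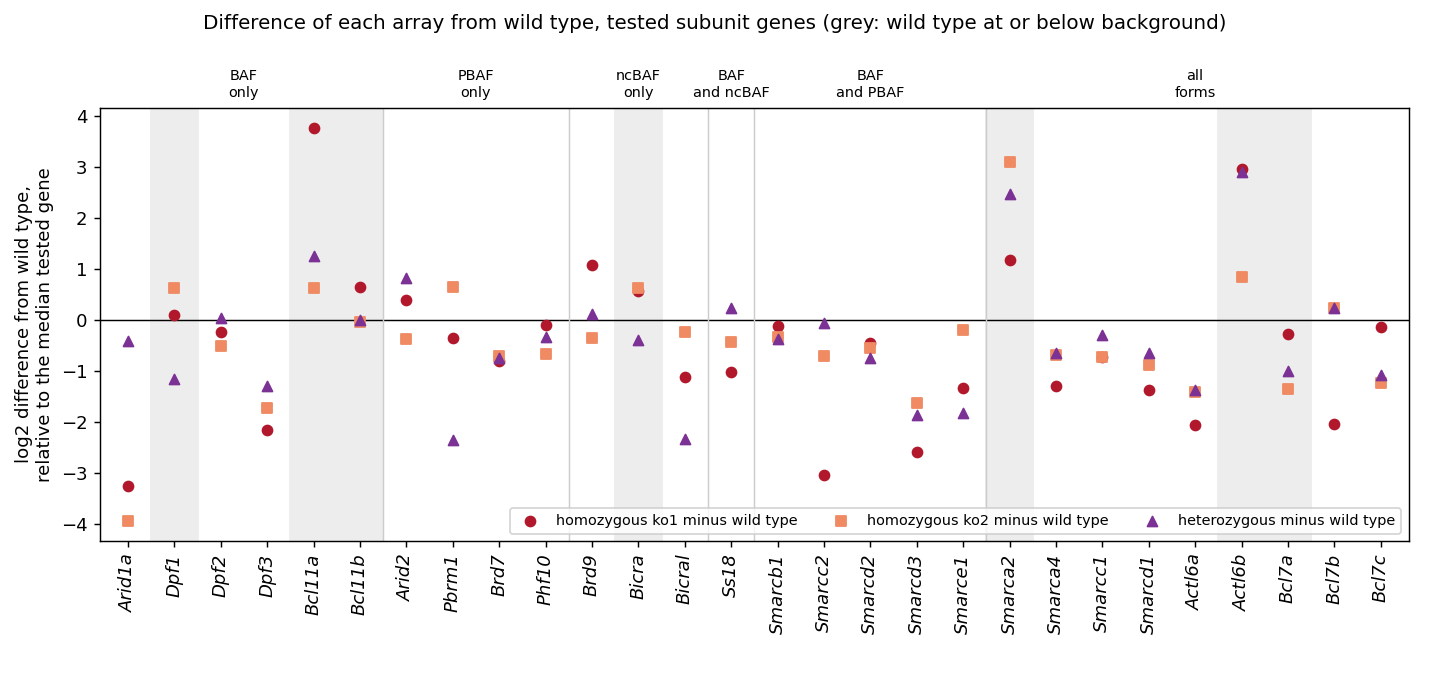
Log2 difference of ko1, ko2 and heterozygous from wild type for the 28 tested subunit genes, relative to the median tested gene (line at 0), grouped by complex form; grey columns mark genes at or below background in wild type. The 3 arrays share the wild type array they are set against. Arid1a is the gene where both homozygous lines lie below -3 and heterozygous lies nearer 0.

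Among the subunits held by all forms (9 tested, median -0.74), the catalytic gene Smarca4 read 93.3 in wild type, 36.7 in heterozygous, 25.0 in ko1 and 33.9 in ko2. Its 3 lower arrays lay close together, below a wild type value far above them. The difference from wild type was -0.91 ± 0.54 (SE) for homozygous (limma adjusted p = 0.149) and -0.65 ± 0.62 (SE) for heterozygous (adjusted p = 0.64), and neither passed. Its second probe set gave 48.1 in wild type, 10.6 in heterozygous, 16.9 in ko1 and 14.3 in ko2, the same order of wild type over the rest. Smarca2, the alternative ATPase, read 0.783 in wild type, 4.37 in heterozygous, 1.52 in ko1 and 6.72 in ko2. Only ko2 was above background, and its other probe set read 1.53 in wild type, 3.87 in heterozygous, 4.42 in ko1 and 1.80 in ko2, so the array holding the highest value changed with the probe set and none was measured well enough to rank.

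The scaffold gene Smarcc1 (BAF155) read 63.2 in wild type, 31.8 in heterozygous, 25.1 in ko1 and 22.2 in ko2, with both homozygous lines below both other arrays. It stood at -0.65 ± 0.55 (SE) (adjusted p = 0.284), and its 3 tested probe sets lay between -1.09 and -0.66. Smarcd1 (BAF60a), which links the complex to transcription factors, gave 48.2 in wild type, 18.7 in heterozygous, 11.9 in ko1 and 15.0 in ko2. The homozygous lines did not overlap with the other arrays, yet the difference of -1.05 ± 0.60 (SE) did not pass (limma adjusted p = 0.162). Actl6a (BAF53a), an actin-like subunit, came nearest to the threshold after Arid1a, with 38.9 in wild type, 8.82 in heterozygous, 5.67 in ko1 and 8.15 in ko2. Wild type stood alone: homozygous minus wild type was -1.66 ± 0.72 (SE) (adjusted p = 0.0967) and heterozygous minus wild type -1.38 ± 0.83 (SE) (adjusted p = 0.584). After median centring of the arrays the limma adjusted p of homozygous minus wild type was 0.554, so its nearness to the threshold rests on the signals as deposited. A second Actl6a probe set read 35.8 in wild type, 4.21 in heterozygous, 9.07 in ko1 and 8.75 in ko2, again with wild type apart, whereas the third read 9.49 in wild type, 5.32 in heterozygous, 7.64 in ko1 and 6.81 in ko2 and stood at 0.37. Probe sets of this gene thus disagreed in direction. Heterozygous was below background on the second and the third.

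Actl6b, the actin-like paralogue known from neurons, read 1.23 in wild type, 8.22 in heterozygous, 9.24 in ko1 and 1.36 in ko2, so the 2 higher arrays came from different genotypes. Among the Bcl7 subunits, small proteins of little known function, Bcl7c was the best measured, at 22.9 in wild type, 6.26 in heterozygous, 13.7 in ko1 and 5.32 in ko2. Bcl7c was above background on all arrays but heterozygous. It stood at -0.60 ± 0.76 (SE), with ko1 closer to wild type than ko2. Bcl7b read 8.11 in wild type, 5.79 in heterozygous, 0.754 in ko1 and 5.44 in ko2, above background in wild type and ko2. No array lifted Bcl7a above background on its brightest probe set, where its difference was -0.74. Under quantile normalization and over spiked controls another of its probe sets had the highest mean, with differences of 1.98 and 2.17.

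Subunits shared by BAF and PBAF (5 tested) had a median of -0.68, and all 5 had wild type as their brightest array. Smarcb1 (BAF47), a core subunit and tumour suppressor, read 53.9 in wild type, 25.7 in heterozygous, 33.0 in ko1 and 25.1 in ko2. Its homozygous lines lay on either side of heterozygous, and its difference of -0.14 ± 0.55 (SE) was small beside its error. Of its other probe sets, one that read 13.3 in wild type, 9.41 in heterozygous, 7.70 in ko1 and 3.70 in ko2 stood at -0.47, and one at -1.74 was above background in wild type alone. Smarce1 (BAF57) is an HMG box protein. Its brightest probe set gave 25.5 in wild type, 3.92 in heterozygous (below background), 6.32 in ko1 and 12.9 in ko2. That is -0.68, but its second probe set read 8.36 in wild type, 9.84 in heterozygous, 6.66 in ko1 and 9.63 in ko2 and stood at 0.68. Smarcd2 (BAF60b) split likewise, with 38.0 in wild type, 13.7 in heterozygous, 18.3 in ko1 and 15.0 in ko2 on its brightest probe set at -0.42 and 0.27 on the next. Another Smarcd2 probe set read 2.83 in wild type, 6.86 in heterozygous, 6.20 in ko1 and 14.3 in ko2 and stood at 2.27. Both homozygous lines were above their background there, ko1 at one of 5.55. Heterozygous read higher than ko1 but just under its own background of 6.92, and wild type was below background.

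Smarcc2 (BAF170) read 17.4 in wild type, 10.1 in heterozygous, 0.797 in ko1 and 5.87 in ko2. The ko1 value was below its background, so the lines cannot be ranked, and both lay below the other arrays. The difference of -1.79 ± 1.00 (SE) did not pass (limma adjusted p = 0.286), and with ko1 at background it was at least 1.69-fold lower than wild type. Smarcd3 (BAF60c), known from heart and neurons, read 8.66 in wild type, 0.923 in heterozygous, 0.366 in ko1 and 1.14 in ko2. Wild type alone was above background there, so the other 3 arrays give bounds and no order. With the dim arrays at background, homozygous was at least 1.05-fold lower than wild type, which leaves almost no measured difference.

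The PBAF subunits (4 tested, median -0.11) had no common direction. Arid2 (BAF200), which takes the place of the ARID1 proteins, read 10.4 in wild type, 11.5 in heterozygous, 8.98 in ko1 and 4.42 in ko2 and stood at 0.09 ± 0.82 (SE). As deposited both homozygous lines were below both other arrays. Pbrm1 (BAF180), a protein of several bromodomains, gave 10.5 in wild type, 0.682 in heterozygous, 5.14 in ko1 and 9.72 in ko2. Its heterozygous value was the lowest, below background, and homozygous minus heterozygous was 2.55 ± 1.07 (SE), the highest of the 28 without passing (adjusted p = 0.576). The other 2 Pbrm1 probe sets read 6.01 in wild type, 2.72 in heterozygous, 2.88 in ko1 and 9.75 in ko2, and 7.22 in wild type, 2.37 in heterozygous, 1.87 in ko1 and 7.34 in ko2. On both of them ko2 alone was above background, so the arrays cannot be ranked. Brd7, a bromodomain subunit, read 16.8 in wild type, 5.79 in heterozygous, 6.05 in ko1 and 5.69 in ko2. Wild type stood apart from both homozygous lines, and heterozygous was below its background of 6.92. Phf10 (BAF45a), a PHD finger subunit, gave 37.6 in wild type, 18.2 in heterozygous, 23.2 in ko1 and 13.6 in ko2 and stood at -0.30 ± 0.59 (SE).

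Of the ncBAF subunits (3 tested, median 0.44), Brd9, the bromodomain protein that defines the form, read 14.7 in wild type, 9.66 in heterozygous, 20.9 in ko1 and 6.49 in ko2. Here ko1 was the highest array and ko2 the lowest, so the lines enclosed the other genotypes and the difference of 0.44 ± 0.73 (SE) lay within its error. Bicra, a scaffold of ncBAF, gave 6.60 in wild type, 2.76 in heterozygous, 6.49 in ko1 and 6.05 in ko2, and wild type was under background. Bicral, its paralogue, gave 16.5 in wild type, 1.45 in heterozygous, 4.64 in ko1 and 7.98 in ko2 on its brightest probe set. There ko2 and wild type were above background. Another Bicral probe set was above background in heterozygous alone, at 7.91. Yet another passed it in ko2 alone, at 3.84 against a background of 3.82 on that array. There heterozygous read 6.15, higher than ko2 but under its own background, ko1 3.75 and wild type 3.53.

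Among the remaining BAF subunits, Dpf2 (BAF45d), a PHD finger protein of wide expression, read 31.1 in wild type, 19.7 in heterozygous, 17.3 in ko1 and 12.7 in ko2. Both homozygous lines were just below heterozygous, and the difference of -0.29 ± 0.61 (SE) was small beside its error. Ss18, a subunit of BAF and ncBAF, gave 31.9 in wild type, 23.1 in heterozygous, 10.1 in ko1 and 13.7 in ko2. The homozygous lines did not overlap with the others, at -0.64 ± 0.62 (SE) against wild type and -0.90 ± 0.62 (SE) against heterozygous, and neither passed (adjusted p = 0.368 and 0.829). Dpf3 (BAF45c), known from heart and muscle, read 12.4 in wild type, 2.64 in heterozygous, 1.30 in ko1 and 1.68 in ko2, above background in wild type alone. Dpf1, Bcl11a and Bcl11b, known from neurons and lymphocytes, were each above background on 1 array. Dpf1 read 4.71 in wild type, 0.827 in heterozygous, 3.19 in ko1 and 4.29 in ko2, and Bcl11b 5.58 in wild type, 3.23 in heterozygous, 5.88 in ko1 and 2.94 in ko2, so ko2 held the 1 measured Dpf1 value and ko1 the 1 measured Bcl11b value. Bcl11a reached 12.2 in ko1 on its brightest probe set against 0.623 in ko2, and its other 6 probe sets read between 0.191 and 5.95 in ko1. Ss18l1, the neuronal paralogue of Ss18, read 3.33 in wild type, 1.66 in heterozygous, 1.88 in ko1 and 3.20 in ko2 on the brighter of its 2 probe sets, below background on every array, and was not tested.

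Probe sets of the same gene often disagreed. In the 16 genes with more than 1 probe set past the filter on mean signal, all of them lay below the median probe set in 5 genes (Arid1a, Smarca4, Smarcc1, Smarcb1 and Bcl7c), all above it in 2 (Smarca2 and Bcl11a), and on both sides in 9. In 4 genes more than 1 probe set was above background on all arrays: those of Smarca4, Smarcc1 and Ss18 lay below the median probe set, and those of Smarcd2 lay on both sides. In the fit over all probe sets, 1 of 57 tested subunit probe sets was called, the brighter one of Arid1a (limma adjusted p = 3.67e-04), against 0.411% of all probe sets, 0.2% lower and 0.211% higher. With wild type and heterozygous taken as 1 group, the second Arid1a probe set passed too (adjusted p = 0.0363).

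**Figure D4:**
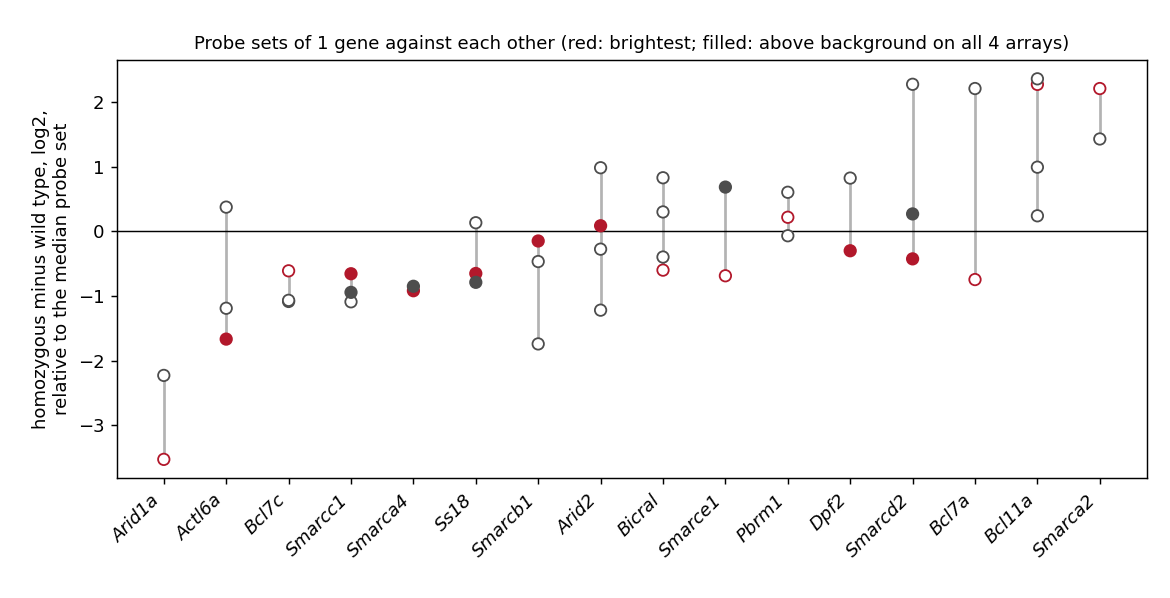
Homozygous minus wild type log2 difference, relative to the median probe set, for each probe set past the filter on mean signal in the 16 subunit genes with more than 1; red marks the brightest probe set, and filled points were above background on all 4 arrays. The filled points of Smarca4, Smarcc1 and Ss18 lie below 0, and 9 genes have points on both sides of 0.

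A ratio of 2 probe sets within an array depends less on the level of that array, so each paralogue pair was followed through its within-array log2 ratio, as a description without a test. Smarcd1 over Smarcd2 was the 1 pair with both genes above background on all arrays, and its ratio differed from wild type by -0.93 in ko1, -0.33 in ko2 and 0.09 in heterozygous. Its homozygous mean of -0.63 moved to -1.07 with probe sets averaged, and the Smarcd2 probe sets disagreed in direction. For Brd7 over Brd9, with both genes above background in wild type and both homozygous lines, the difference was -1.87 in ko1 and -0.36 in ko2. For Smarcc1 over Smarcc2 it was -0.02 in ko2 and -0.23 in heterozygous, close to wild type, while Smarcc2 was below background in ko1. For Bcl7b over Bcl7c it was 1.46 in ko2, while Bcl7b was below background in ko1 and heterozygous. In the remaining pairs a gene was below background in wild type or in most arrays, and the ratio gives no order of the arrays. This holds for Arid1a over Arid1b, where the homozygous mean was -1.69, and moved to -0.72 with the pseudocount divided by 16 and to -2.22 with the 40th percentile as pseudocount. It holds as well for Smarca4 over Smarca2 and Actl6a over Actl6b, whose second genes were below background in wild type, and for Ss18 over Ss18l1, with Ss18l1 below background throughout.

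**Figure D5:**
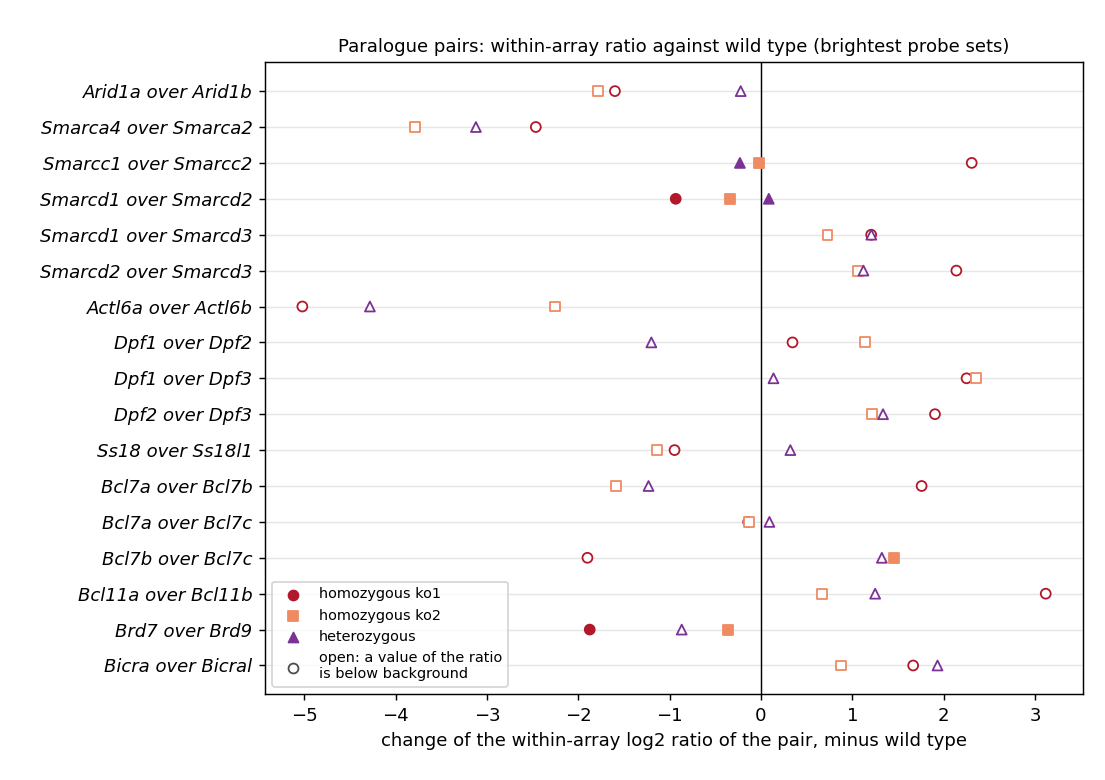
Change of the within-array log2 ratio of each paralogue pair from wild type, for ko1, ko2 and heterozygous (1 point per array); open points involve a value below background in that array or in wild type. Most points are open, and Smarcd1 over Smarcd2 is the 1 pair with 3 filled points, which lie between -0.93 and 0.09.

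Homozygous against heterozygous asks what differs once the second allele is altered as well. Again Arid1a fell, 0 subunits rose and 27 did not pass, against 0.758% of all tested genes called, 0.0583% lower and 0.699% higher. The median of the 28 was -0.09, and 14 lay below the median gene. Without Arid1a the range ran from -1.76 (Smarcc2) to 2.55 (Pbrm1), and the smallest adjusted p was 0.576. In heterozygous against wild type 0 of 28 subunits passed, against 0.0146% of all tested genes, and at an unadjusted p under 0.05 there were 7 lower and 0 higher, against 996 and 43 of all tested genes. The 28 had a median of -0.41 there, with 20 below the median gene. These comparisons share arrays, so their medians are not independent. In 10 of 28 subunits heterozygous lay above both homozygous lines and below wild type, in 11 within the range of the homozygous lines, in 6 below both, and in 1 (Arid2) above all other arrays, counts that include values below background.

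The 8 subunits listed for the ES cell form were Arid1a, Smarca4, Smarcc1, Smarcd1, Actl6a, Dpf2, Phf10 and Ss18. Phf10 is on this list although it is grouped with PBAF above. On their brightest probe sets all 8 lay below the median gene in homozygous against wild type (median -0.78, range -3.52 to -0.29). Other tested probe sets stood at 0.82 for Dpf2 (below background on every array), 0.37 for Actl6a and 0.13 for Ss18. All tested probe sets of Arid1a, Smarca4 and Smarcc1 lay below the median probe set. With probe sets averaged Dpf2 stood at 0.13. In 7 of the 8 on their brightest probe sets, both homozygous lines lay under heterozygous and wild type alike. Phf10 was the exception, and the share among all tested genes was 26.9%. By the test 1 of the 8 fell. That order was lost on another Smarca4 probe set (10.6 in heterozygous, 16.9 in ko1, 14.3 in ko2). Another Ss18 probe set lost it too (8.02 in heterozygous, 6.62 in ko1, 9.90 in ko2). Both were above background on every array. The dimmer Arid1a probe set kept it, as did another of Smarcc1 (13.4 in heterozygous, 6.07 in ko1, 9.44 in ko2). Heterozygous was lowest, but below background, on other probe sets of Smarcc1 and Actl6a. Subunits known from neurons (7 listed, 6 tested) had a median of 0.42, a range of -2.02 to 2.28 and 0 called. None of these 7 was above background on all arrays, and 5 of the 7 were not above it in wild type. Of the ES cell markers, 10 of 10 lay below the median gene and 6 fell, and their summed signal was 3316 in wild type, 1975 in heterozygous, 762 in ko1 and 889.6 in ko2. Pou5f1, the OCT4 gene, read 213 in wild type, 98.7 in heterozygous, 11.7 in ko1 and 42.1 in ko2, and Fgf4 75.7 in wild type, 33.1 in heterozygous, 5.72 in ko1 and 4.27 in ko2. Extraembryonic endoderm markers differed in the other direction, 7 of 11 rising and 0 falling, with summed signals of 151 in wild type, 110.0 in heterozygous, 6896 in ko1 and 3852 in ko2. Fewer ES-like cells and less subunit RNA per cell cannot be told apart in bulk RNA. Sums for fibroblast markers were 32.0 in wild type, 19.2 in heterozygous, 37.1 in ko1 and 53.5 in ko2, with Pdgfrb below background on every array and 0 of 6 tested passing. Neural markers summed to 137 in wild type, 84.4 in heterozygous, 59.0 in ko1 and 44.8 in ko2, with Sox1 below background throughout and 1 of 7 tested, Stmn2, falling. Trophoblast markers summed to 109 in wild type, 117 in heterozygous, 475 in ko1 and 342 in ko2, with Eomes below background throughout. Krt8 and Krt18 rose, and the other 4 tested did not pass. Most of the sum in both homozygous lines came from Krt8 (188 in ko1, 89.6 in ko2) and Krt18 (252 in ko1, 232 in ko2). The part of these cell markers in the subunit values was not tested.

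Other remodelling families were read from the same fit. Of 51 tested genes of the ISWI, CHD and NuRD, INO80, SRCAP and TIP60/p400 families and of single remodellers, 0 rose and 0 fell after adjustment with limma, against 1.01% of all tested genes, while 12 were lower and 2 higher at an unadjusted p under 0.05. Their median was -0.20, beside -0.60 for the SWI/SNF subunits, and 31 of 51 lay below the median gene. The order of these medians turned with probe sets averaged (-0.40 against -0.21) and with wild type and heterozygous as 1 group (-0.30 against -0.26). The share with ko1 and ko2 each under heterozygous and wild type was 39.2% for these remodellers and 39.3% for the subunits. By family the medians were -0.26 for ISWI, -0.20 for CHD and NuRD, -0.26 for INO80, SRCAP and TIP60/p400, and -0.15 for the others. Whether the subunits differ from these families was not tested.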

How the data were processed

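Signal intensity values per probe set, on a linear scale, were deposited by the authors and came from MAS5, as the submitters' processing notes name it; the sources used here do not give its version or scaling target. RNA (8 microgram per sample) was labelled with biotin and hybridised to 1 array per sample, per the labels' protocols. All 30 symbols matched the platform annotation and the RefSeq gene table; 34945 probe sets with 1 symbol that are not controls were used. The probe set of highest mean stood for its gene, and only genes whose mean passed 2.55 (the 40th percentile of probe set means) entered the fit. Values were log2(signal + 0.675), the 20th percentile of all values, which understates changes of dim genes. limma 3.58.1 in R 4.3.3 fitted 1 mean per genotype (lmFit, eBayes with intensity trend, Benjamini-Hochberg, threshold 0.05), with 1 residual and 47.8 total degrees of freedom. A probe set was above background if brighter than the brightest of 27 unspiked control probe sets of its array. A fold of at least a value sets dim homozygous arrays at their background on the scale of the fit. The procedure was tested on simulated data. All simulated arrays were given the spread of the homozygous lines and no shift between arrays. They could therefore not check whether the lone arrays vary as those lines do, nor the effect of the shift. No depth applies to arrays, and their number limits the precision. All subunit genes are named; of the other remodellers only called genes would be, and of the marker lists up to 3 members. Members, lists and tests were chosen with earlier results of these data known. The alternatives tried are given under the dependence on processing; cyclic loess was chosen after seeing the data.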

Additional observations from a re-analysis of the deposited data

How the results depend on the processing

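The fall of Arid1a in homozygous against wild type and against heterozygous held under every tested alternative except 2: probe sets averaged (limma adjusted p = 0.246 and 0.5) and no intensity trend (0.545 and 0.634). The number of subunits called was 0 in both comparisons under these 2 settings, by limma. Over probe sets it was 1 as reported, 0 without the filter on dim signals and without the trend, and 2 with wild type and heterozygous as 1 group. For these lost calls the cause was not tested. The number of all genes called was 139 and 104 in these comparisons as reported, 0 in both without the trend, 7 and 10 with probe sets averaged, 50 and 48 after median centring, and at most 203 and 111, with the pseudocount at the 40th percentile. No other subunit was called in any alternative, and in heterozygous against wild type none was called anywhere. The median of the subunits in homozygous against wild type was -0.60 as reported, -0.54 with the pseudocount at the 40th percentile, -0.38 with quantile normalization, -0.73 with no filter, -0.21 with probe sets averaged and -0.26 with wild type and heterozygous as 1 group, and -0.47 to -0.40 with 1 homozygous array left out. In homozygous against heterozygous it was -0.093 as reported, -0.20 with quantile normalization, -0.16 with scaling on spiked controls and -0.31 with the filter at the 60th percentile, and -0.10 to -0.0097 with 1 homozygous array left out. In heterozygous against wild type it was -0.41 as reported, -0.27 with quantile normalization, -0.47 with no filter, -0.36 with the filter at the 60th percentile and -0.26 with probe sets averaged. The median of the other remodellers was -0.20 as reported, -0.33 with no filter, -0.40 with probe sets averaged and -0.30 with wild type and heterozygous as 1 group, and -0.17 to -0.047 with 1 homozygous array left out. Differences that changed sign were those of genes called under neither setting. With quantile normalization they became -0.0074 for Arid2 and 1.98 for Bcl7a in homozygous against wild type, and -0.057 for Phf10 and -0.20 for Bcl7a in homozygous against heterozygous, and 2.15 for Bcl7a in heterozygous against wild type. With no filter they became -0.036 for Arid2 in homozygous against wild type, and -0.042 for Phf10 in homozygous against heterozygous, and -0.050 for Dpf2 in heterozygous against wild type. With probe sets averaged they became -0.24 for Arid2, 0.57 for Smarcd2, 0.094 for Smarce1, -0.47 for Dpf1, 0.13 for Dpf2 and 0.86 for Bcl7a in homozygous against wild type, and 0.11 for Smarca4, -0.11 for Smarcb1, 0.35 for Actl6a, -0.017 for Phf10, -0.49 for Bcl7c and -0.15 for Bicral in homozygous against heterozygous, and 0.45 for Smarcd2, -0.40 for Ss18, 0.41 for Bcl7a, 0.42 for Bcl11b and 0.042 for Bicral in heterozygous against wild type. With wild type and heterozygous as 1 group they became -0.39 for Arid2, 0.16 for Smarce1 and 0.50 for Bicral in homozygous against wild type. With scaling on spiked controls they became 2.17 for Bcl7a in homozygous against wild type, and 0.051 for Smarcd3 and -0.16 for Bcl7a in homozygous against heterozygous, and 2.33 for Bcl7a in heterozygous against wild type. With the pseudocount at the 40th percentile they became -0.014 for Phf10 in homozygous against heterozygous, and -0.011 for Dpf2 and 0.052 for Bcl11b in heterozygous against wild type. With the filter at the 60th percentile they became -0.014 for Phf10 in homozygous against heterozygous, and 0.043 for Bcl11b in heterozygous against wild type. With cyclic loess they became -0.052 for Phf10 in homozygous against heterozygous. Bcl7a was represented by another probe set under quantile normalization and spiked scaling. The within-array ratio of Arid1a to Arid1b changed by -1.04 with probe sets averaged, and that of Smarcd1 to Smarcd2 by -1.07.

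No paired analysis was possible because wild type and heterozygous have 1 array each, so the groups compared share fewer than 2 replicate numbers. Leaving out a homozygous array leaves no residual degree of freedom and gives a value with no test. Dim signal is a limit: 19 of 30 subunits were not above background on at least 1 array, and values there have no order.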
